A study of Homo sapiens with 4 samples.

Results

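The 35 genes described here act in homologous recombination, in the Fanconi anemia pathway or as the checkpoint kinases that signal to both, and they were chosen by name, with earlier results of these data known. All 35 were listed in each of the 4 deposited expression tables, which together list 27629 genes. Each table came from RNA-seq of 1 culture of UM-UC-3, a human bladder cancer cell line, and there was 1 library per condition. All 4 cultures received siRNA at 75 nM with a lipid reagent. The control siRNA library received a negative control siRNA, and the other 3 received a pair of different siRNAs against hnRNPK (si-hnRNPK), against the long noncoding RNA lncRNA-LBCS (si-lncRNA-LBCS) or against PTBP1 (si-PTBP1). RNA was taken 48 h after transfection, a time that the study's methods give for the si-hnRNPK and control cells. hnRNPK and PTBP1 are RNA-binding proteins that act in transcription, splicing and RNA stability. No condition had a second RNA-seq culture, so no difference below has a replicate check within these libraries. None was tested against the spread between cultures. Outside the RNA-seq, the study reported lower hnRNPK, ERCC1 and ERCC4 with hnRNPK siRNA, by RT-qPCR in repeated experiments and by western blotting. For the 35 genes no such measurement was found in the sources used here.

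Homologous recombination repairs broken DNA and stalled replication forks by copying the sister chromatid. Nucleases first resect the broken end, BRCA1, PALB2 and BRCA2 then prepare the single-stranded tail for strand invasion with help from further mediators, and helicases and nucleases undo the joined DNA molecules at the end. The Fanconi anemia pathway removes crosslinks between the DNA strands, such as those that cisplatin makes: a core complex with the E2 enzyme UBE2T attaches ubiquitin to FANCD2 and FANCI, and recombination completes the repair. The kinases ATM and ATR, with CHEK2 and CHEK1 as their respective effectors, report DNA damage to the cell cycle machinery. Many of these genes are transcribed most in S and G2 phase, when a sister chromatid is present, and cisplatin is a standard drug for bladder cancer.

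The siRNAs define the groups and their sense strands are shown for that reason, 5′ to 3′ as the labels give them. Capitals mark the 7 bases that a transcript must hold to pair with bases 2 to 8 (the seed) of the guide strand.
control siRNA: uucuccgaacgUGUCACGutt
si-hnRNPK, first: ggguuguagagUGCAUAAatt
si-hnRNPK, second: gccuccaucuaGAAGAGAutt
si-lncRNA-LBCS, first: gcugcucauuuGUCUGAUctt
si-lncRNA-LBCS, second: ggugguagucaACACAAAutt
si-PTBP1, first: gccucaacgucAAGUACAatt
si-PTBP1, second: cccucauugacCUGCACAatt
The 19 paired bases of none of these siRNAs occurred in a transcript of the 35 genes.

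The tables held between 54301152 and 70232674 reads on listed genes, and values are CPM, read counts scaled to the same total in every library. HNRNPK stood at 783.1 CPM in the control library and at 187.8 CPM in the si-hnRNPK library, 24.0% of control. PTBP1 stood at 280.0 CPM in the control library and at 89.7 CPM in the si-PTBP1 library, 32.0% of control. The gene matched by both lncRNA-LBCS siRNAs (ENSG00000228412) had 110 reads with control siRNA and 103 reads where the label is si-lncRNA-LBCS. That is 81.8% of control after scaling, with a 95% counting interval of 61.9% to 108%, so its knockdown against the control library was not detectable at this depth. The same gene was at 191% of control (150% to 244%) in the si-hnRNPK library and 213% (168% to 271%) in the si-PTBP1 library. Of 15 urothelial and epithelial markers, 4 or 5 reached 1 CPM in a library (KRT7, KRT8, KRT18, PPARG and, in 2 libraries, TP63), GATA3 and the uroplakins were below 1 CPM or not listed, and their summed level was 155 to 219 CPM. All 5 mesenchymal markers reached 1 CPM, with a summed level of 1677 to 2589 CPM. Of 10 white blood cell markers at most 1 reached 1 CPM in a library (summed 0.356 to 2.89 CPM), and of 7 endothelial and smooth muscle markers likewise at most 1 (summed 0.626 to 2.02 CPM).

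Across the 35 genes, levels were lowest after hnRNPK knockdown. Their summed level was 1806 CPM with control siRNA, 1197 CPM with si-hnRNPK (66.3% of control), 1855 CPM with si-lncRNA-LBCS and 1695 CPM with si-PTBP1. The si-hnRNPK library held the lowest of the 4 values for 29 of the 35 genes, and the highest for 1, FANCF. How many of all genes were lowest in that library was not counted. Of the 13672 genes tested, 58.4% were lower there than in the control library, as were 31 of these 35. The control library held the highest value for 16 genes, the si-lncRNA-LBCS library for 10 and the si-PTBP1 library for 8. The 35 genes had between 245 reads (EME1, si-hnRNPK) and 16958 reads (ATM, si-lncRNA-LBCS), and all 35 passed the filter of 1 CPM in at least 1 of the 2 libraries of every comparison.

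**Figure D1:**
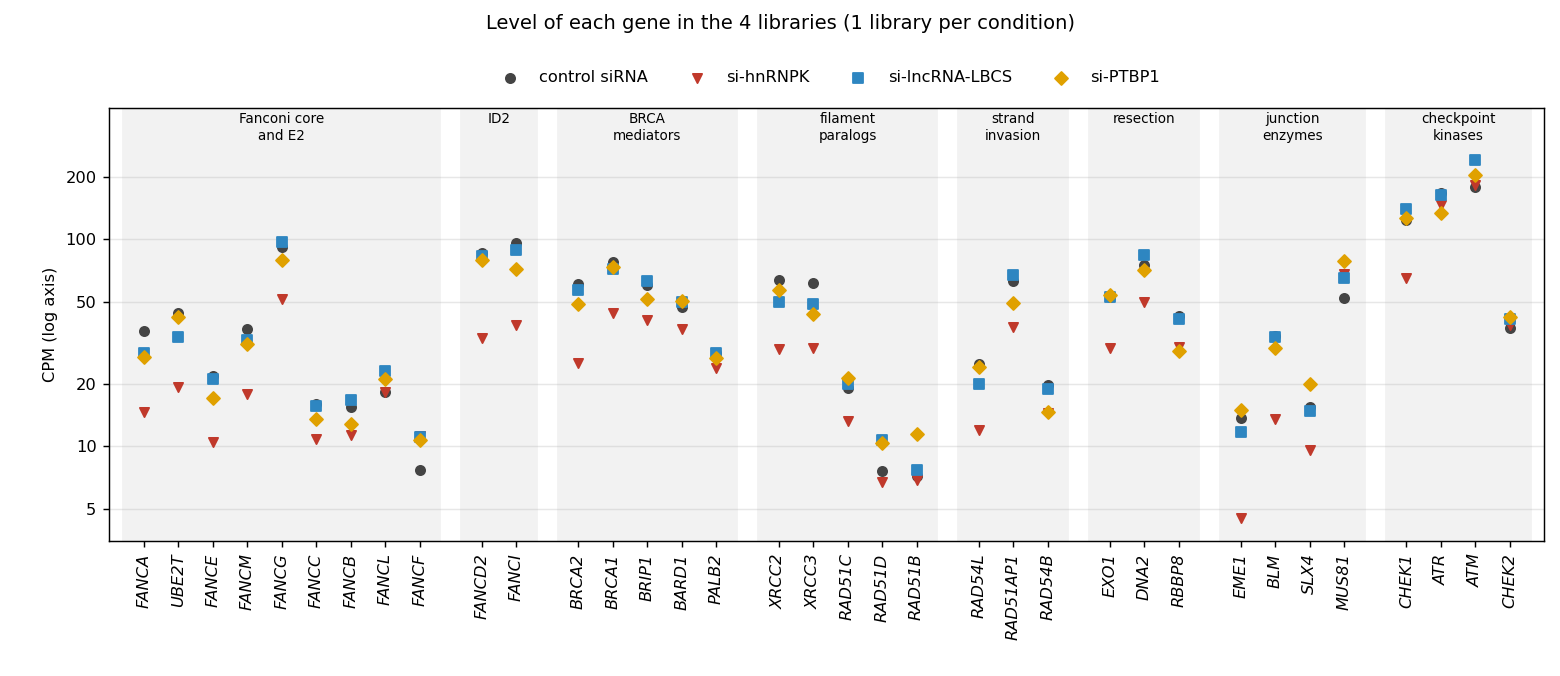
Level of each of the 35 genes in CPM (log axis) in the 4 libraries, grouped by role, with 1 point per library and no error bars because each condition is 1 library. The si-hnRNPK triangles are the lowest of the 4 points for 29 genes, while FANCF is highest there and MUS81, ATM and CHEK2 are lowest in the control library.

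Changes are given as the difference in log2(CPM + 1) from the control library, which understates the change of low genes, and a gene is said to have fallen or risen where that difference reached 1. In the si-hnRNPK library 10 of the 35 genes fell (28.6%), against 3.93% of the 13672 genes tested, and none of the 35 rose, against 3.55% of all genes. The 10 falls became 5 when the reference was the geometric mean of the other 3 libraries, where 358 of 14150 genes fell. They became 6 against the other 2 knockdown libraries, where 369 of 13999 genes fell. Against the si-PTBP1 library alone they became 4, where 840 of 13895 genes fell. At a fold of 1.5, taken on the same log2(CPM + 1) scale, the counts were 18 lower, against 15.8% of all genes, and 0 higher, against 9.89%. DNA2, at 66.3% of control by the plain ratio of CPM, lay just inside that threshold. By the 95% counting interval of the ratio of CPM, which covers counting error only, 28 of the 35 were lower in the si-hnRNPK library, against 47.9% of all genes, 2 were higher (FANCF and MUS81), against 32.4%, and 5 could not be told from no difference. The median difference of the 35 genes was -0.63, with quartiles of -1.01 and -0.29, and the median of all genes was -0.11. Within the list the differences ran from -1.42 for EME1 to 0.48 for FANCF. RNA from a culture cannot tell fewer cells in a given cycle phase from less RNA of these genes per cell.

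The same 35 genes were near their control values in the library labelled si-lncRNA-LBCS. None fell, against 1.01% of 13492 genes, and none rose, against 0.378%. At 1.5-fold the counts were 0 lower, against 5.74% of all genes, and 0 higher, against 4.14%. By the counting interval 10 genes were lower, against 37.5% of all genes, and 12 were higher, against 34.7%. The median difference was -0.02, and that of all genes was -0.01.

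In the si-PTBP1 library no member fell, against 0.613% of 13855 genes, and none rose, against 2.92%. At 1.5-fold 0 were lower, against 3.12% of all genes, and 2 were higher (RAD51B and MUS81), against 12.1%. By the counting interval 19 of the 35 were lower, against 25.4% of all genes, and 10 were higher, against 49.7%. The median difference was -0.08 where that of all genes was 0.12, and 26 of the 35 genes lay below the median of all genes. Its sign depended on the reference: the members' median was -0.20 with median-of-ratios scaling, 0.12 against the geometric mean of the other 3 libraries and 0.24 against the other 2 knockdown libraries, references that include the low si-hnRNPK library. The 3 comparisons share the control library, so a deviation of that library would enter all of them.

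**Figure D2:**
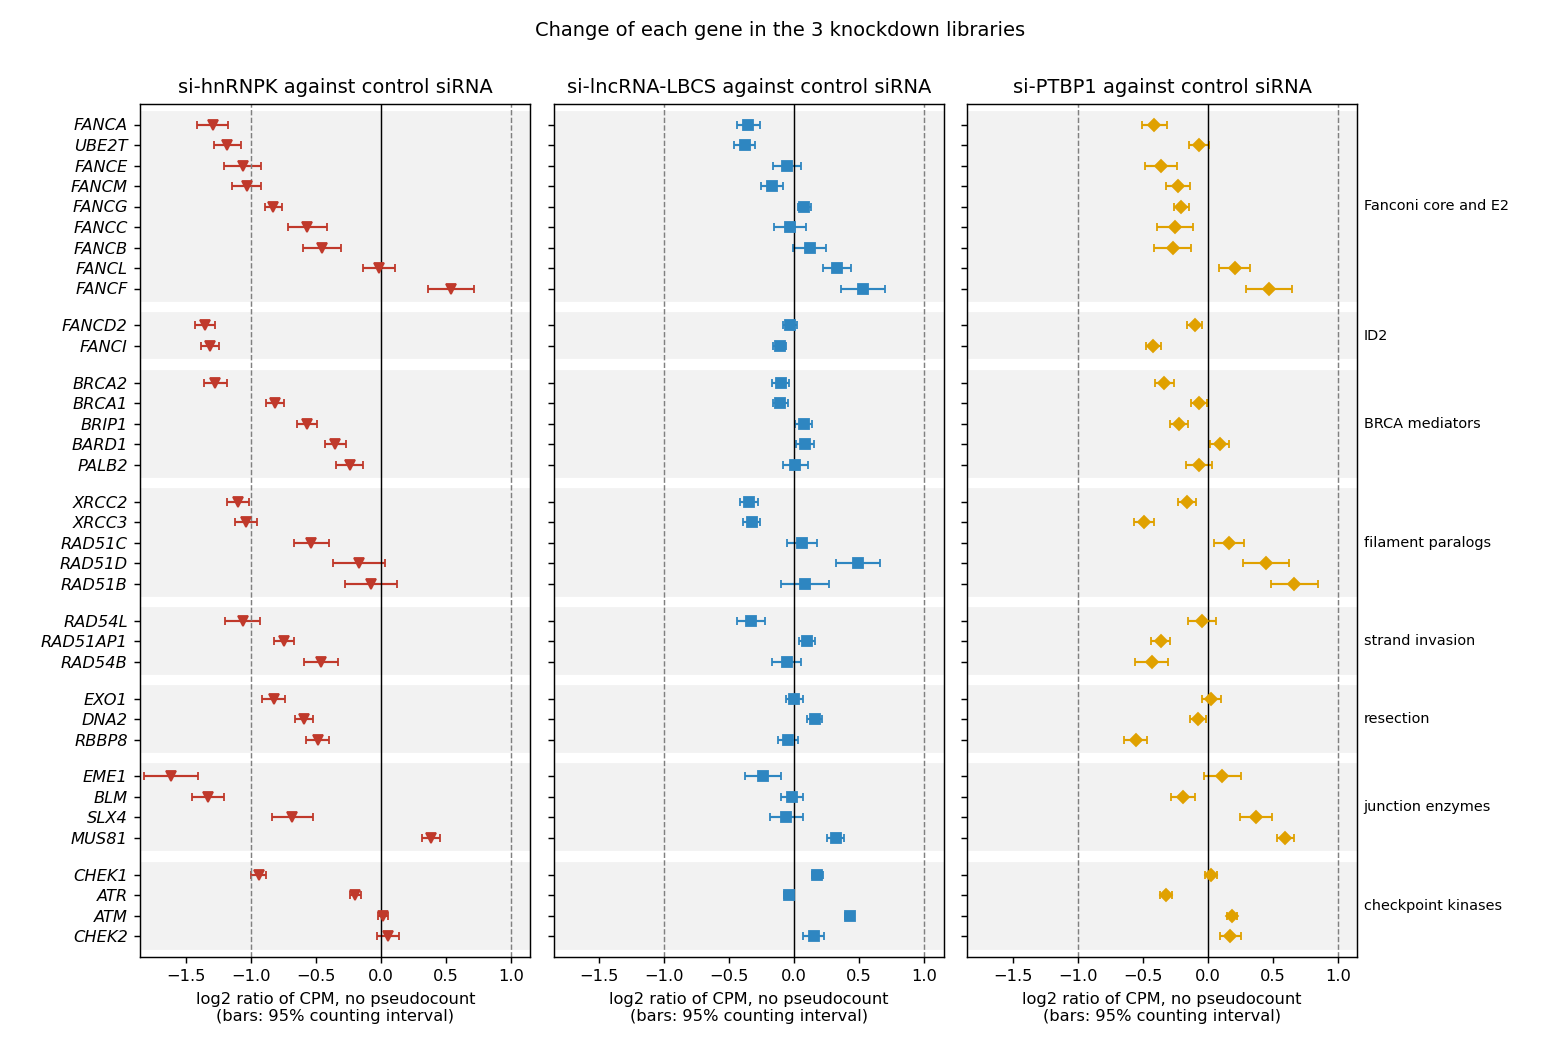
Log2 ratio of CPM (no pseudocount) of each gene in the si-hnRNPK, si-lncRNA-LBCS and si-PTBP1 libraries against the control library, 1 panel each, with bars for the 95% counting interval and dashed lines at -1 and 1. In the first panel EME1 is lowest, FANCF and MUS81 lie above 0 with their whole bars, ATM and CHEK2 lie just above 0 with bars that cross it, and no point passes a dashed line in the other panels. The text's threshold is on the log2(CPM + 1) scale, on which FANCE and FANCM lie just inside -1.

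The substrates of the Fanconi core complex, FANCD2 and FANCI, fell together after hnRNPK knockdown. Where 4 CPM values stand in a row from here on, they belong to the control, si-hnRNPK, si-lncRNA-LBCS and si-PTBP1 libraries in that order. FANCD2 was at 85.5, 33.4, 83.5 and 79.8 CPM, and its si-hnRNPK level was 39.1% of control (37.0% to 41.2%). FANCI, its partner in the ID2 clamp that closes around DNA, was at 96.2, 38.7, 89.0 and 72.0 CPM, with the si-hnRNPK level at 40.2% of control. Both were thus lowest in the si-hnRNPK library, and FANCI was also at 74.9% of control in the si-PTBP1 library. Of the 50-base stretches of FANCD2 transcripts, 5.17% also occur in other genes, its pseudogene FANCD2P2 first among them.

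Among the 9 genes of the core complex and its E2 enzyme, 2 fell in the si-hnRNPK library, against 3.93% of all genes. By the counting interval 7 were lower, against 47.9% of all genes, and the median difference was -0.82. FANCA, a scaffold subunit, was at 36.1, 14.7, 28.2 and 27.1 CPM, a difference of -1.24 in the si-hnRNPK library. UBE2T, the E2 enzyme that hands ubiquitin to FANCD2 and FANCI, was at 44.0, 19.4, 33.8 and 42.0 CPM, a difference of -1.14. FANCA was lower than control in all 3 knockdown libraries by the counting interval, and UBE2T in the si-hnRNPK and si-lncRNA-LBCS libraries. FANCE, which bridges the complex to FANCD2, was at 21.8, 10.5, 21.1 and 17.1 CPM, and at -0.996 it missed the threshold. FANCM, the DNA translocase that anchors the complex on chromatin, was at 36.7, 17.95, 32.7 and 31.3 CPM and missed it at -0.992. Both were below 50% of control by the plain ratio of CPM, at 47.9% and 48.9%, so the pseudocount set their side of the threshold.

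The remaining core subunits spread from lower to higher. FANCG, a partner of FANCA, was at 91.5, 51.6, 96.6 and 79.5 CPM, which is 56.4% of control in the si-hnRNPK library. FANCC was at 16.1, 10.9, 15.7 and 13.5 CPM, and FANCB, which holds the ligase module together, at 15.5, 11.3, 16.8 and 12.8 CPM. These 3 genes were lower in the si-hnRNPK library by the counting interval without reaching the threshold. FANCL, the E3 ligase subunit, was at 18.4, 18.2, 23.1 and 21.2 CPM, and its si-hnRNPK level was 99.1% of control (90.9% to 108%). FANCF, an adaptor subunit, was at 7.71, 11.2, 11.1 and 10.7 CPM. The control library was the low one for FANCF, and the 3 knockdown libraries stood at 145%, 144% and 139% of it. FANCA shares 23.6% of its exon bases with ZNF276, FANCL 18.7% with VRK2 and FANCF 11.3% with GAS2, each on the opposite strand, and whether reads were counted by strand is not given in the sources used here.

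The 5 mediator genes around BRCA1 and BRCA2 were all lower in the si-hnRNPK library by the counting interval, against 47.9% of all genes. Of the 5, 1 fell, against 3.93% of all genes. BRCA2, a mediator that acts on single-stranded DNA, was at 61.1, 25.3, 56.9 and 48.5 CPM, a difference of -1.24 that left 41.4% of control (38.9% to 44.0%). PALB2, which ties BRCA2 to BRCA1, was at 28.1, 23.8, 28.3 and 26.8 CPM, and its si-hnRNPK level was 84.6% of control. The 2 partners therefore differed in size of change in the same library. BRCA1, which promotes resection and recruits PALB2, was at 77.3, 44.0, 71.8 and 73.9 CPM. BARD1, the obligate partner of BRCA1 in its ubiquitin ligase, was at 47.2, 37.0, 49.97 and 50.2 CPM. BRIP1, a helicase that binds BRCA1, was at 60.2, 40.6, 63.3 and 51.6 CPM. Their differences in the si-hnRNPK library were -0.80, -0.34 and -0.56.

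The paralogs XRCC2, XRCC3, RAD51B, RAD51C and RAD51D, which act as mediators of recombination, split into 2 that fell and 3 that did not. In the si-hnRNPK library 3.93% of all genes fell. XRCC2 was at 63.4, 29.6, 49.8 and 56.9 CPM, a difference of -1.07 in the si-hnRNPK library. XRCC3 was at 61.4, 29.9, 48.8 and 43.7 CPM, a difference of -1.01. Both were highest in the control library and, by the counting interval, below it in all 3 knockdown libraries. Exons of KLC1, on the opposite strand, cover 76.7% of the XRCC3 exon bases, and KLC1 itself was at 29.4, 32.1, 29.9 and 43.7 CPM, so the XRCC3 values are uncertain. RAD51C, which pairs with XRCC3, was at 19.2, 13.2, 19.99 and 21.5 CPM, and was lower in the si-hnRNPK library by the counting interval. RAD51D, which pairs with XRCC2, was at 7.59, 6.76, 10.7 and 10.3 CPM. RAD51B was at 7.23, 6.87, 7.66 and 11.5 CPM. The si-hnRNPK levels of RAD51D and RAD51B could not be told from control by counting error, at 89.0% (77.4% to 102%) and 94.9% (82.5% to 109%). RAD51B stood highest in the si-PTBP1 library, at 159% of control (140% to 180%), and RAD51D stood at 141% in the si-lncRNA-LBCS library and 136% in the si-PTBP1 library. RAD51D shares 8.01% of its exon bases with the readthrough gene RAD51L3-RFFL on its own strand.

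RAD54L, a motor protein that acts in strand invasion, was at 25.1, 12.01, 19.9 and 24.3 CPM, which is 47.8% of control in the si-hnRNPK library. Its difference of -1.004 was the smallest that reached the threshold. RAD51AP1, which stimulates strand invasion, was at 63.2, 37.7, 67.6 and 49.2 CPM. RAD54B, a relative of RAD54L, was at 19.8, 14.4, 19.04 and 14.7 CPM, alike in the si-hnRNPK and si-PTBP1 libraries. RAD54L shares 25.1% of its exon bases with LRRC41 on the opposite strand. LRRC41 was at 105.8, 126.0, 108.8 and 95.8 CPM, above RAD54L, and the part of its reads in the RAD54L values was not tested. RAD54B shares 59.1% of its exon bases with FSBP on its own strand, so reads of RAD54B and FSBP cannot be told apart there.

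None of the 3 resection genes fell, a count near the 3.93% of all genes that fell in the si-hnRNPK library. All 3 were lower there by the counting interval, against 47.9% of all genes. EXO1, the exonuclease of long-range resection, was at 52.8, 29.8, 52.8 and 53.8 CPM. DNA2, a nuclease and helicase that resects alongside BLM, was at 75.2, 49.8, 83.8 and 71.2 CPM. RBBP8, also known as CtIP, which starts resection with the MRN complex, was at 42.4, 30.3, 41.0 and 28.9 CPM. EXO1 and DNA2 were lowest in the si-hnRNPK library, at 56.5% and 66.3% of control, whereas RBBP8 was lower with si-hnRNPK (71.4%) and also with si-PTBP1 (68.2%). Its difference of -0.54 in the si-PTBP1 library was the largest reduction among the 35 genes in that comparison.

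The enzymes that dissolve or cut joined DNA molecules held the largest fall and one of the 2 higher genes of the si-hnRNPK library. EME1, a partner subunit of the nuclease MUS81, was at 13.8, 4.51, 11.7 and 14.9 CPM, from 846, 245, 820 and 836 reads. Its si-hnRNPK level was 32.7% of control (28.3% to 37.8%), a difference of -1.42. MUS81, the catalytic subunit, was at 51.9, 67.7, 64.8 and 78.6 CPM, or 130%, 125% and 151% of control in the 3 knockdown libraries. The control library was thus the lowest of the 4 for MUS81, and the si-hnRNPK library for EME1. BLM, the helicase that dissolves double Holliday junctions, was at 34.1, 13.6, 33.6 and 29.9 CPM, a difference of -1.27 in the si-hnRNPK library. SLX4, the scaffold that docks MUS81-EME1 and other nucleases, was at 15.5, 9.65, 14.8 and 20.01 CPM, 62.4% of control with si-hnRNPK and 129% with si-PTBP1. On the opposite strand, EME1 shares 16.4% of its exon bases with LRRC59 and MUS81 shares 13.9% with CFL1. LRRC59 was at 214.4, 171.6, 194.8 and 201.3 CPM, far above EME1, and CFL1 at 809.9, 949.6, 757.6 and 853.3 CPM, far above MUS81. The part of their reads in the EME1 and MUS81 values was not tested.

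ATM, ATR and CHEK1 had the highest CPM of the 35 genes in the control library. None of the 4 checkpoint kinases fell, a count near the 3.93% of all genes that fell in the si-hnRNPK library. CHEK1, the kinase that ATR activates, was at 124, 64.9, 141 and 127 CPM, a difference of -0.93 in the si-hnRNPK library. CHEK2, the kinase that ATM activates, was at 37.3, 38.7, 41.3 and 42.1 CPM. So CHEK1 was lowest in the si-hnRNPK library, at 52.2% of control (50.1% to 54.3%), while CHEK2 stood there at 104% (97.8% to 110%). ATM, which responds to broken DNA, was at 180, 182, 241 and 204 CPM, highest in the si-lncRNA-LBCS library at 134% of control. ATR, which responds to single-stranded DNA, was at 168, 147, 164 and 135 CPM, lowest in the si-PTBP1 library at 80.0% of control. Of the 50-base stretches of CHEK2 transcripts, 4.81% also occur in other genes, led by its pseudogene CHEK2P2.

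Genes that work as partners could be compared within each library, where the scaling of the library cancels. The 11 pairs were chosen after the values had been seen and are given as a description. Reads of EME1 per read of MUS81 were 0.265 with control siRNA, 0.0667 with si-hnRNPK, 0.180 with si-lncRNA-LBCS and 0.190 with si-PTBP1. The ratio of FANCE to FANCF was 2.84, 0.936, 1.89 and 1.59 in the same order. For both pairs the control ratio was the highest and the si-hnRNPK ratio the lowest, and the counting intervals of those 2 libraries did not overlap. BRCA2 reads per PALB2 read were 2.17, 1.06, 2.01 and 1.81. CHEK1 reads per CHEK2 read were 3.34, 1.68, 3.41 and 3.01. In these 2 pairs the si-hnRNPK library stood below the other 3 libraries. The ratio of FANCD2 to FANCI was 0.889 in the control library (0.856 to 0.923) and 0.864 in the si-hnRNPK library (0.811 to 0.920), so the intervals of this pair overlapped, and it was 1.11 in the si-PTBP1 library.

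Most other ratios lay to one side of control in all 3 knockdown libraries. XRCC2 reads per RAD51D read were 8.35 in the control library and 4.39, 4.67 and 5.50 in the si-hnRNPK, si-lncRNA-LBCS and si-PTBP1 libraries. XRCC3 reads per RAD51C read were 3.20 and 2.26, 2.44 and 2.03. The control library was the high one for both, and its interval did not overlap those of the other 3. The ratio of ATM to ATR was 1.07 in the control library and 1.24, 1.47 and 1.52 in the knockdown libraries, so here the control library was the low one. BRCA1 reads per BARD1 read were 1.64, 1.19, 1.44 and 1.47, and FANCA reads per FANCG read were 0.394, 0.285, 0.292 and 0.341, with the control library the highest in both. FANCB reads per FANCL read were 0.841, 0.620, 0.726 and 0.605, and here the intervals of the control and si-lncRNA-LBCS libraries overlapped (0.770 to 0.917 and 0.673 to 0.783).

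**Figure D3:**
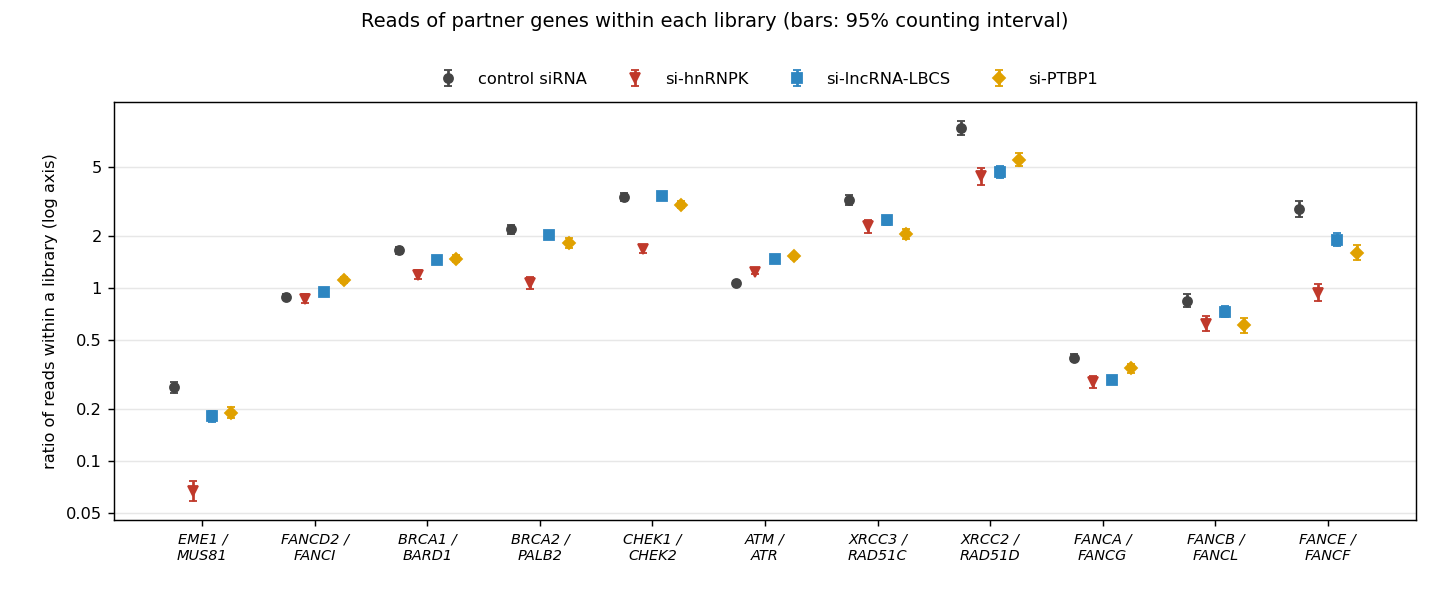
Ratio of the reads of partner genes within each of the 4 libraries (log axis), with bars for the 95% counting interval, for the 11 pairs. EME1 per MUS81 drops from 0.265 in the control library to 0.0667 in the si-hnRNPK library, whereas FANCD2 per FANCI is 0.889 and 0.864 with overlapping bars.

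Promoters of 5 of the genes are shown with the letters searched in them. RefSeq promoters on GRCh38.p14, 250 bases before to 50 bases after the start, were matched for 32 of the 35 genes, and DNA2, FANCI and RAD54B had no entry. Where a gene had several entries only the first was used, so the start need not be the main one of that gene. FANCD2, FANCA and XRCC2 fell after hnRNPK knockdown and hold an E2F-type octamer, and EME1 and MUS81 are the partner genes that differed most. Capitals mark matches on either strand to the octamers TTTCCCGC, TTTGGCGC, TTTCGCGC or TTTGCCGC, to the hexamer TTTGAA (known as CHR) or to the pentamer CCAAT, and no match overlapped another in these windows. Each is written 5′ to 3′ on the strand of its gene.
FANCD2, chr3:10026187-10026486, plus strand: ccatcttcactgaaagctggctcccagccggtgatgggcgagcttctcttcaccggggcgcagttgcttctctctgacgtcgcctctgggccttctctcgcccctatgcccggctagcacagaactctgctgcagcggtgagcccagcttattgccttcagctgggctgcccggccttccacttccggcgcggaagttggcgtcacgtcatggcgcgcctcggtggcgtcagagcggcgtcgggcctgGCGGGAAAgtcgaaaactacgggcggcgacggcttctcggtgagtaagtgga
FANCA, chr16:89816598-89816897, minus strand: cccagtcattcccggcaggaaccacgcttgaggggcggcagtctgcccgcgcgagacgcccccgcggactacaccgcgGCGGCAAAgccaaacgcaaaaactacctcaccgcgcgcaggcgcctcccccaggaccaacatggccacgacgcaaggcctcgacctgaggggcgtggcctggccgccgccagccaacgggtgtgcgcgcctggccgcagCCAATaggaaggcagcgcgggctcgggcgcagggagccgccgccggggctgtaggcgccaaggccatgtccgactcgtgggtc
XRCC2, chr7:152676092-152676391, minus strand: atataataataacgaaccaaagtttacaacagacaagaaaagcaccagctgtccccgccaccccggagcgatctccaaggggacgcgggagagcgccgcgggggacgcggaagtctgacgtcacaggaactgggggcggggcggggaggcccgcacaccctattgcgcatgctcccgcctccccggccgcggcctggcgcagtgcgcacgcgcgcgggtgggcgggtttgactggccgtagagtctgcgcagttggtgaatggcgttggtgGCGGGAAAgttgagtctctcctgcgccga
EME1, chr17:50372979-50373278, plus strand: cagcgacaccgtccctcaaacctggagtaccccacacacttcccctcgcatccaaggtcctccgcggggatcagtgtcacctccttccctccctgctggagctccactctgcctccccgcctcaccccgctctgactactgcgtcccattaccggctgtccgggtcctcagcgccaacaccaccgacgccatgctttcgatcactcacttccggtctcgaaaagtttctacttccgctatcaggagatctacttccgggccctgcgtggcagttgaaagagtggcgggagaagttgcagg
MUS81, chr11:65860183-65860482, plus strand: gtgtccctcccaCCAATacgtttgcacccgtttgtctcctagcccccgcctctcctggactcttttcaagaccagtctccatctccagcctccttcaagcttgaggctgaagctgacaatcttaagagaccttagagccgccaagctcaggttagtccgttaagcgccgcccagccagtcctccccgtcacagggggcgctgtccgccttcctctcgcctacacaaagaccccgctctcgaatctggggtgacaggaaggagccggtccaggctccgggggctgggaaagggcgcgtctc
An octamer was found in 5 of the 32 promoters (EXO1, FANCD2, XRCC2, FANCC and FANCA, 15.6%), and in 3.31% of all 35116 promoters. The pool of all promoters was not limited to expressed genes, whereas each member entered with a single window. The CHR hexamer was in 4 (UBE2T, FANCC, ATM and BRIP1; 12.5%), against 15.2% of all promoters, and CCAAT in 14 (43.8%), against 34.6%. Of the 5 genes with an octamer, FANCD2, XRCC2 and FANCA fell in the si-hnRNPK library while EXO1 and FANCC were at -0.80 and -0.52. Of the 9 fallen genes with a promoter entry the other 6 (BRCA2, RAD54L, XRCC3, BLM, EME1 and UBE2T) held no octamer. The window of EME1 held none of these letters, which says nothing of the factors.

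Matches to the siRNA seeds in the longest annotated 3′ untranslated region were read for all 35 genes and for 11945 genes in all. For the first si-hnRNPK siRNA 3 members held a site (BLM, ATR and CHEK1; 8.57%), against 11.4% of all genes. For the second, 7 held one (BRCA1, RAD51C, RAD51D, BLM, EME1, UBE2T and CHEK2; 20%), against 23.0%. Of the 10 genes that fell, BLM, EME1 and UBE2T held such a site and the other 7 did not. Sites for the control siRNA were in FANCA and FANCF (5.71%, against 3.63%), of which FANCA was highest and FANCF lowest in the control library, and those for the si-lncRNA-LBCS siRNAs in FANCF for the first (2.86%, against 10.2%) and in RAD54B and EME1 for the second (5.71%, against 19.2%). For the si-PTBP1 siRNAs 5 members (14.3%, against 14.8%) and 7 members (20%, against 17.5%) held a site. Of the 10 members with a site for either si-PTBP1 siRNA, 6 were lower in that library by the counting interval. This compares with 19 of all 35 members and 25.4% of all genes. The 6 were FANCA, ATR, FANCC, XRCC2, FANCD2 and BRCA1, at 75.3% to 95.5% of control. Of the rest, 2 could not be told from no difference (CHEK1 and RAD54L) and 2 were higher. Those 2, RAD51D at 136% and ATM at 114% of control, held a site for both siRNAs.

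Per kilobase of merged exons in the control library, the members ran from 0.672 CPM per kb for RAD51D to 26.6 CPM per kb for UBE2T, with a median of 7.77 CPM per kb. FANCG at 25.3 and RAD51AP1 at 24.7 CPM per kb stood next to UBE2T, and RAD51B at 0.968 and FANCC at 1.26 CPM per kb next to RAD51D. ATM, the highest gene by CPM, was at 7.496 CPM per kb, near the middle of the order. With 1 control library there is no spread by which neighbours in this order could be separated.

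Further genes of the same pathways were lower by less in the median after hnRNPK knockdown. Of 61 listed genes of a wider repair list 59 were tested, of which 7 fell, against 3.93% of all genes, and 0 rose, against 3.55%, and the median difference was -0.41. The 5 largest falls were MDC1, the adaptor that spreads damage signalling on chromatin, from 33.2 to 8.47 CPM, CLSPN, which links ATR to CHEK1, from 79.3 to 24.5 CPM, POLQ, the polymerase of theta-mediated end joining, from 101.2 to 34.3 CPM, ERCC4, the nuclease subunit that cuts at crosslinks, from 12.5 to 4.18 CPM, and H2AX, the histone phosphorylated at breaks, from 184.6 to 79.8 CPM. MDC1 also fell in the si-lncRNA-LBCS library, to 13.97 CPM, as the 1 gene past the threshold of 60 tested there, against 1.01% of all genes down. In the si-PTBP1 library 0 of 59 passed the threshold, against 0.613% of all genes down. Both counts are near the share of all genes. The median differences of that list were -0.06 and -0.08 in these 2 libraries.

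Cell cycle genes moved in the same library as the 35 repair genes. None of the 35 is on the S phase or G2/M lists used here, which hold genes known to peak in those phases. That absence comes from how the lists were set and does not make the 35 distinct from such genes. Many of the 35 are themselves transcribed most in S and G2 phase. Of the wider repair list, 4 genes are also on these lists, CLSPN among them. After hnRNPK knockdown 15 of 47 S phase genes (31.9%) and 35 of 54 G2/M genes (64.8%) fell, against 3.93% of all genes. Their median differences were -0.81 and -1.16. The medians of these lists were -0.15 and -0.04 in the si-lncRNA-LBCS library and -0.17 and -0.30 in the si-PTBP1 library. The study's own flow cytometry, 48 h after transfection, found smaller S and G2/M populations of UM-UC-3 cells with hnRNPK siRNA. The part of the cell cycle in the values of the 35 genes was not tested. Of 11 tested genes of the end joining list, a route that needs no sister chromatid, 0 fell and the median was -0.29. That list leaves out POLQ, which was put on the wider list and fell. For the 2 other repair lists, nucleotide excision repair had a median of -0.12 with 0 of 20 fallen, and base excision repair a median of -0.50 with 1 of 20 fallen. These 3 counts are near the 3.93% of all genes that fell, so they set none of the 3 lists apart. They also depend on where genes were placed. ERCC1 and ERCC4, which act in nucleotide excision repair too, were put on the wider list. In the si-hnRNPK library ERCC4 fell, with a difference of -1.38, and ERCC1 was at 64.6% of control. In the si-lncRNA-LBCS and si-PTBP1 libraries the medians were -0.10 and -0.00073 for end joining, 0.09 and 0.03 for nucleotide excision repair, and -0.12 and -0.11 for base excision repair.

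**Figure D4:**
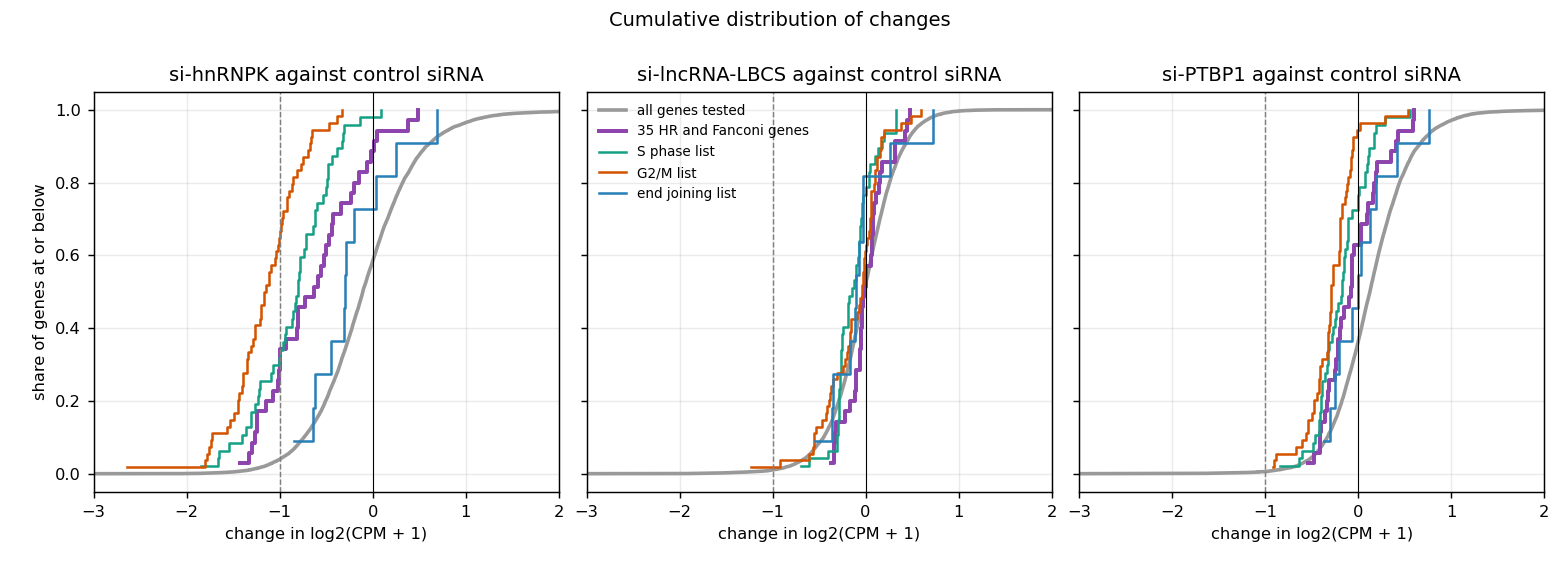
Cumulative share of genes at or below a given change in log2(CPM + 1), 1 panel per knockdown library against control, for all genes tested, the 35 genes, and the S phase, G2/M and end joining lists, with a dashed line at -1. In the si-hnRNPK panel the median of the 35 genes (-0.63) lies between those of the S phase list (-0.81) and end joining (-0.29). In the si-lncRNA-LBCS panel the medians of the lists run from -0.15 for the S phase list to -0.02 for the 35 genes, and that of all genes is -0.01.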

How the data were processed

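RNA-seq of 4 UM-UC-3 cultures, 1 per condition, was read as pairs of 100 bases. For each library the authors deposited a table of CPM, with hg19 named in the submitters' processing notes. The aligner, counter, annotation and strand setting are not given in the sources used here. CPM was relative to all reads on listed genes: 100% of values were whole multiples of 1 read within 0.01 read, so reads were recovered, and values standing for 0 reads were set to 0. A total of 3 reads, the limit that a count of 0 allows, equals 0.0427 to 0.0552 CPM.

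Symbols were matched to Ensembl IDs (25647 of 27629). Genes that reached 1 CPM in either library of a comparison were compared on log2(CPM + 1), with a threshold of 1. Ratios carry exact Clopper-Pearson 95% intervals from reads, which cover counting error only. Exon overlaps, lengths and 3′ untranslated regions came from GENCODE 29 (GRCh38), matched by ID. Python 3.11.15, pandas 2.3.3 and scipy 1.17.1 were used, and steps over all genes were tested on simulated data. All 35 members are named, and of the wider list at most the 5 largest changes past the threshold. Members and lists were chosen with earlier results of these data known. For the wider list, 1 gene is not reported here. Alternatives were the pseudocount, the filter, a 1.5-fold threshold, median-of-ratios scaling, other reference libraries and a binomial test of reads.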

Additional observations from a re-analysis of the deposited data

How the results depend on the processing

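No paired analysis was possible because each condition is 1 library, and no library of a group could be left out in turn. The 10 falls among the 35 genes after hnRNPK knockdown became 18 at a 1.5-fold threshold, where 2165 of 13672 genes were lower. They became 5 against the geometric mean of the other 3 libraries (358 of 14150 genes) and 6 against that of the other 2 knockdown libraries (369 of 13999). With references chosen after seeing the data they became 6 against the si-lncRNA-LBCS library alone (339 of 13480). Against the si-PTBP1 library alone, also chosen then, they became 4 (840 of 13895). The count was 12 with a pseudocount of 0.1 CPM (995 of 13672 genes) and 7 with median-of-ratios scaling (375 of 13759), and no setting gave a rise. That scaling shifted all si-hnRNPK changes by about 0.11 upwards and moved the members' median to -0.53, with RAD51B and FANCL changing sign, and it turned the split over all genes from 486 up and 537 down to 613 and 375. In the si-PTBP1 library it moved the members' median to -0.20, changed the sign of BARD1, EXO1, EME1 and CHEK1, and turned the split over all genes from 404 up and 85 down to 257 and 133. The 1.5-fold threshold gave 2 members up in the si-PTBP1 library, against 1673 of 13855 genes. The members' median there was 0.12 against the geometric mean of the other 3 libraries and 0.24 against the other 2 knockdown libraries. Against the si-hnRNPK library alone it was 0.62, with 4 members up, where 840 of 13895 genes were up. For si-lncRNA-LBCS these medians were 0.22, 0.37 and 0.69, the last with 6 up (339 of 13480 genes), and 0.073 against the si-PTBP1 library alone. The si-hnRNPK library is in each of these references but the last, so its low values enter them. The binomial test of reads, which compares 2 libraries and not conditions, called 10872, 9479 and 10182 genes in the si-hnRNPK, si-lncRNA-LBCS and si-PTBP1 libraries.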
